A study of Drosophila melanogaster with 12 samples.

Results

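Spermatocyte-high genes with 3′ extensions are genes of the Drosophila melanogaster testis whose level was much higher in spermatocytes than in spermatogonia and whose transcripts were also listed with a change in a 3′ extension. They were chosen from the authors' deposited table of spermatogonia against spermatocytes by 2 conditions on its group averages, a gene level of at least 10 in spermatocytes and at least 4 times the spermatogonial gene level. The rule found 78 of the 751 listed genes, which leaves 673 other listed genes. The table holds selected genes, each with an authors' P below 0.05 and an extension level that differed by more than 2 times, so the 78 are not all genes high in spermatocytes.

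RNA was sequenced from 12 testis libraries in 5 groups. The SG group, mitotic germ cells or spermatogonia, and the SC group, meiotic germ cells or spermatocytes, were cut from wild-type testes by laser dissection and had 3 libraries per group. The 3 mutant groups had 2 libraries per group and used whole testes: SG-tut those of the allele tut3, SG-bam those carrying bamBG over bamΔ86, and SG-bgcn those carrying bgcn20093 over bgcnQS2 (a genotype the labels spell "bcgn mutant"). The labels describe the mutant testes as holding mainly mitotically arrested germ cells, and such testes also hold somatic cells. SG and SC libraries were made with a SMARTer ultra-low-input kit and Nextera XT. The mutant libraries were made from Trizol RNA enriched for mRNA with an Illumina mRNA-Seq kit. Between a mutant and either SG or SC, the effects of genotype, dissection and kit therefore cannot be told apart. Whether the libraries within a group derive from different flies is not stated in the labels, and the authors' P may then reflect technical spread alone.

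A gene can make transcripts with different 3′ ends when its precursor RNA is cut and polyadenylated at different sites, and the stretch between a nearer and a farther end is called the extension here. The farther end adds sequence to the 3′ untranslated region (3′ UTR), where RNA-binding proteins and small RNAs can act on translation and stability. Fly spermatocytes grow for a long time before the meiotic divisions and switch on a large programme of genes for meiosis and for spermatids, many of whose mRNAs are stored and translated later. The proteins encoded by bam, bgcn and tut act together to end the spermatogonial divisions, and without any of them germ cells keep dividing and do not become spermatocytes.

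Every level printed is a group average made by the authors. No unit and no replicate error come with these averages, so a gene's level is compared between groups and not with that of another gene. Library depth is unknown. The authors' extension share, printed here as a percentage, sets the extension level over the gene level and stops at 100% where the extension level was the higher one. A gene is called when the authors' FDR was 0.05 or less. Which test gave P and FDR is not stated. The libraries are bulk samples, in which fewer cells of a type and less RNA per cell cannot be told apart.

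The rule used the gene levels of SG and SC, so these levels are a description of what was chosen. The gene level of the 78 had a median of 10.1 in SG (0.34 to 240.34) and 127.24 in SC (10.78 to 3767.17) in the authors' deposited table. The SC level was a median of 7.93 times the SG level, and up to 143 times. Just inside the limit on the ratio lay CG32163, with a gene level of 38.12 in SG and 152.55 in SC, followed by mus304 and Unc-76. Just outside it, in the same authors' deposited table, isoQC had 72.89 in SG and 288.37 in SC, followed by CG4073 and CG11779. Just inside the limit on the SC level were Gclc with 10.78, CG30463 with 12.58 and Unc-76 with 12.72, and just outside it Eip78C with 4.68, CG9877 with 4.41 and Cyp12c1 with 2.56.

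**Figure D1:**
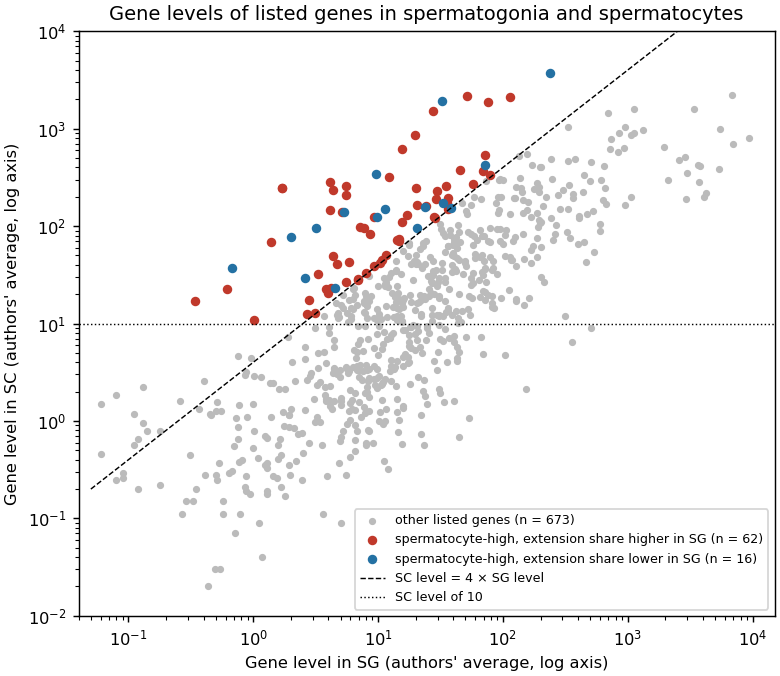
Gene level in SG (x axis) against gene level in SC (y axis), both the authors' group averages on log axes, for the 751 listed genes. Grey points are the 673 other listed genes, red and blue points the 78 spermatocyte-high genes with a higher or a lower extension share in SG, the dashed line a ratio of 4 and the dotted line an SC level of 10; the coloured points fill the upper left corner because the rule defines it.

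The cell types were set against marker genes. All 3 listed spermatocyte markers of 24 were members, Cyt-c-d, aly and fzo, with a summed gene level of 129.31 in SG and 2439.67 in SC in the authors' deposited table. These are values the rule used, so they restate the selection and check nothing. None of the 5 listed spermatogonial and stem cell markers of 14 was a member, and their summed level was 148.81 in SG and 164.61 in SC. Of these 5, stg, the Cdc25 phosphatase of mitosis, had 23.53 in SG and 0.57 in SC in the authors' deposited table, Sxl had 20.35 in SG and 9.46 in SC and AGO3 had 49.39 in SG and 41.69 in SC. The other 2 were higher in SC, where mei-P26 had 11.38 in SG and 25.64 in SC and tut had 44.16 in SG and 87.25 in SC. Of 19 hub, cyst and sheath markers 5 were listed, 1 of them the member dally, with summed levels of 124.72 in SG and 162.55 in SC. Most of that SC sum came from dally, with 5.13 in SG and 138.77 in SC, which are values the rule used. The other 4 were higher in SG in the authors' deposited table: Tm1 had 97.18 in SG and 18.18 in SC, zfh1 11.26 in SG and 2.7 in SC, Cg25C 7.94 in SG and 0.56 in SC, and CadN 3.21 in SG and 2.34 in SC. None of the 13 listed markers was at 0, and no accessory gland product was listed. The part of somatic cells in the extension values was not tested.

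In most of the 78 genes the extension moved against the gene. The extension level and its share were both higher in SG for 62 genes (79.5%), all of them called, while the gene level of each was at least 4 times lower in SG. The share was lower in SG for 16 genes, 15 of them called (19.2%), the exception being CG30196 with an authors' FDR of 0.0575. Of all 751 genes in the authors' deposited table, 88.5% were called with a higher share in SG and 7.86% with a lower one. Nothing is read from the members' counts against these shares. A lower gene level in SG itself raises the share, and the table lists only genes whose extension changed. In every listed row the extension level and its share also moved in the same direction. A member whose extension fell less than its gene is therefore absent from the table. The split into 62 and 16 genes thus depends on how the table was selected, and nothing is read from it. Among the 62 genes the median extension level was 1.97 in SG and 0.137 in SC, the median gene level 9.79 in SG and 122.8 in SC, and the median share 23.1% in SG and 0.106% in SC. Among the 16 genes the median extension level was 0.0258 in SG and 0.857 in SC, and the median share 0.449% in SG and 0.876% in SC.

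The size of the extension change among the 62 lay close to that of the other listed genes with a higher share in SG. The median log2 fold of the extension level, SG over SC, was 4.34 (1.02 to 6.22) in the 62 and 4.64 in the 623 other genes of the authors' deposited table with that direction. The median log2 fold of the gene level was -2.93 in the 62 and 0.86 in the 623, a gap set by the rule. The median log2 fold of the share, which combines both, was therefore 7.16 in the 62 and 3.31 in the 623. Within the 62 the largest extension folds belonged to RhoGEF3 (6.22), CG8298 (6.14) and CG1885 (5.92), and the smallest to CG14834 (1.02) and kermit (1.08).

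**Figure D2:**
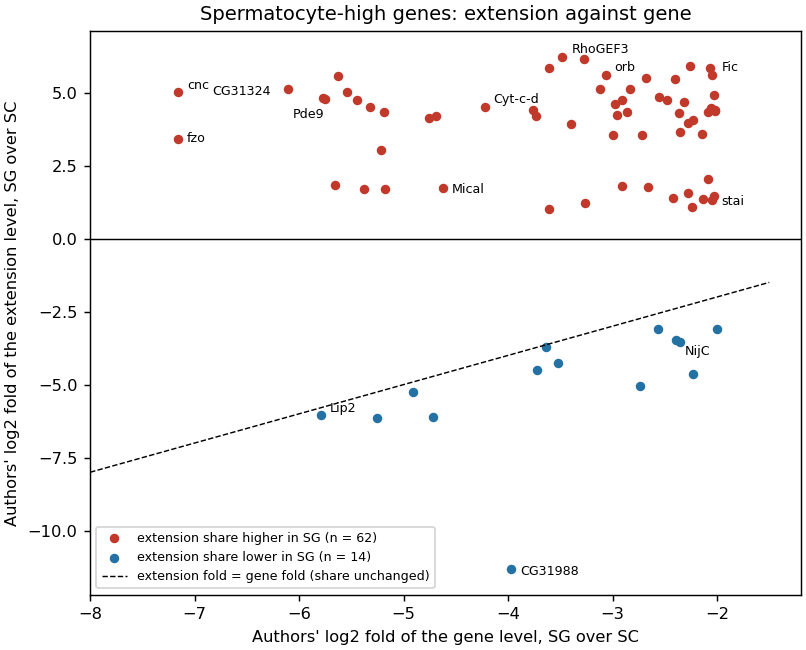
Authors' log2 fold of the gene level (x axis) against that of the extension level (y axis), SG over SC, for the 76 spermatocyte-high genes with no level listed at 0. The 62 red points lie above 0 on the y axis and the 14 blue points below it, all of them under the dashed line of an unchanged share; CG31988 lies lowest at -11.32, and fzo and cnc share the lowest gene fold of -7.16.

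The members of the spermatocyte and spermatid programme, aly, Cyt-c-d and fzo, had extension levels that were higher in SG and gene levels that were lower there. The gene aly encodes a subunit of the testis complex that switches on spermatocyte transcription, and its gene level was 14.12 in SG and 72.72 in SC. Its extension, which lies wholly within its annotated 3′ UTR (chromosome arm 3L, positions 3024212 to 3024521, minus strand, dm6), had a level of 2.19 in SG and 0.11 in SC in the authors' deposited table. The share of the aly extension was 15.5% in SG and 0.152% in SC (authors' FDR 1.65e-05). Cyt-c-d is the testis cytochrome c, which takes part in the caspase step of sperm individualisation. The gene level of Cyt-c-d was 113.48 in SG and 2122.16 in SC, and its extension level 8.72 in SG and 0.385 in SC, in the authors' deposited table. That extension of 1490 bases begins 520 bases past the deposited end of the gene and stops 363 bases before the next exon, which belongs to the somatic cytochrome c gene Cyt-c-p on the same strand.

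Both listed members of the 24 cup and comet genes, whose transcripts are known to gather at the ends of elongating spermatids, were spermatocyte-high, as were 78 of all 751 listed genes. The gene orb encodes an RNA-binding protein of the CPEB family that controls translation through poly(A) tails. Its gene level was 45.21 in SG and 378.72 in SC, while its extension of 2300 bases, all of it annotated 3′ UTR (3R, 23262724 to 23265023, minus strand), had a level of 10.1 in SG and 0.207 in SC in the authors' deposited table. The share of the orb extension was 22.3% in SG and 0.0547% in SC (authors' FDR 4.48e-54). The other was r-cup, transcribed late in spermatogenesis, with a gene level of 16.93 in SG and 131.32 in SC and an extension level of 1.08 in SG and 0.058 in SC in the authors' deposited table. Rb97D, an RNA-binding protein needed for male fertility that is in none of the gene lists, had a gene level of 20.4 in SG and 163.08 in SC. Its extension level was 2.24 in SG and 0.192 in SC.

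Of 5 listed genes of the mitochondrial and energy list 3 were members (Acsl, Cyt-c-d and fzo), all called higher in SG, with a median log2 fold of 4.50 for the extension level and -5.45 for the gene level, the sign of which the rule sets. Of all 751 listed genes 78 were members and 88.5% were called higher in SG. The other 2 listed genes of that list had higher gene levels in SG in the authors' deposited table, Mdh1 with 541.1 in SG and 54.66 in SC and Pdk with 7.94 in SG and 0.59 in SC. Acsl, a long-chain acyl-CoA synthetase, had a gene level of 19.69 in SG and 860.43 in SC and an extension level of 2.21 in SG and 0.0835 in SC in the authors' deposited table. Dic1, a mitochondrial dicarboxylate carrier that is in none of the lists, had a gene level of 24.27 in SG and 159.27 in SC and an extension level of 1.18 in SG and 0.1 in SC. The lipid list held 2 members of 5 listed genes, Acsl and rdgB, a phosphatidylinositol transfer protein with an extension level of 1.14 in SG and 0.487 in SC in the authors' deposited table. Gclc, the catalytic subunit of glutathione synthesis and also in none of the lists, had an extension level of 1.93 in SG and 0.127 in SC. Its gene level of 1.02 in SG lay under its extension level.

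Regulators of small GTPases gave the most members of any list, 5 of 17 listed, where 78 of all 751 listed genes were members. All 5 were called higher in SG, as were 88.5% of all listed genes. Their median log2 fold was 5.46 for the extension level and -3.48 for the gene level. The exchange factor RhoGEF3 had a gene level of 4.37 in SG and 48.76 in SC, and an extension level of 3.65 in SG and 0.0489 in SC, in the authors' deposited table. Its extension (3L, 304569 to 305288, plus strand) lies wholly in its annotated 3′ UTR. The gene step, an exchange factor for Arf GTPases, had a gene level of 15.4 in SG and 109.6 in SC and an extension level of 15.6 in SG and 0.449 in SC, so that extension and gene had nearly the same level in SG. Sur-8, a leucine-rich repeat scaffold of Ras signalling, had extension levels of 10.2 in SG and 0.180 in SC, and Rab8, a GTPase of vesicle traffic, 0.439 in SG and 0.00997 in SC, in the authors' deposited table. The list's other member was Mical, an actin-oxidising enzyme, with 0.473 in SG and 0.141 in SC. The Mical interval of 1050 bases lies inside the locus. It holds 267 bases of the gene's own exons and touches none of its annotated 3′ UTR.

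Of 22 listed adhesion and matrix genes 4 were members, again all called higher in SG. They were the immunoglobulin-domain proteins DIP-theta and beat-IIIc, the glypican dally and the secretory-vesicle phosphatase homologue IA-2. The extension of beat-IIIc had a level of 9.35 in SG and 0.267 in SC while the gene had 4.69 in SG and 40.67 in SC, in the authors' deposited table. For DIP-theta the extension level was 3.21 in SG and 0.0678 in SC, and the gene level 1.38 in SG and 68.06 in SC. The axoneme and motor list gave 2 of 4 listed genes, the dynein light chain homologue robls54B and the stathmin gene stai, and 1 member each came from the lists of spermatocyte transcription (aly, of 2 listed), spermatid differentiation (fzo, of 3), second-messenger signalling (Pde9, of 12), kinases and phosphatases (LIMK1, of 18), RNA binding (orb, of 13), ubiquitin (CG42797, of 7) and vesicle traffic and cytoskeleton (ena, of 16). LIMK1, a kinase that acts on the actin-severing protein cofilin, had extension levels of 8.8 in SG and 0.329 in SC, and ena, which promotes actin filament growth, 1.09 in SG and 0.0538 in SC, in the authors' deposited table. No member came from the 25 listed transcription factors and chromatin regulators, the 3 listed polyadenylation genes or the 1 listed gene of meiotic cell cycle control. This holds for the genes on these lists alone, and members outside the first of them, such as cnc, lilli and aly, also encode regulators of transcription. In all, 22 of the 78 genes were in at least 1 of 16 lists, and every one of the 22 was called higher in SG, where 88.5% of all listed genes were. Over the 13 lists with a member the members' median log2 fold of the extension level ran from 2.48 to 5.61. The lowest was that of the axoneme and motor genes and the highest that of RNA binding, orb alone. Over the 623 other listed genes with a higher share in SG the median was 4.64.

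Of the members outside these lists, 5 more are given here as examples, chosen after their values were seen, and 92.6% of the 673 other listed genes had a higher share in SG as well. TSG101, of the ESCRT complex that sorts membrane proteins, had a gene level of 68.91 in SG and 369.85 in SC and an extension level of 1.01 in SG and 0.384 in SC in the authors' deposited table. Snx3, a sorting nexin, had extension levels of 4.51 in SG and 0.0988 in SC. The dynein cofactor nudE had extension levels of 17.6 in SG and 5.09 in SC, and mus304, the fly ATRIP of the DNA damage checkpoint, 2.72 in SG and 0.132 in SC, in the authors' deposited table. CG8786, whose current symbol Rnf146 is that of a mammalian ubiquitin ligase, had extension levels of 8.95 in SG and 0.368 in SC.

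Of the 16 genes with a lower share in SG, 12 are listed under a CG symbol, against 21 of the 62 with a higher share. Among the other listed genes, 22 of the 50 with a lower share and 229 of the 623 with a higher share have such a symbol. Some have since been named, such as CG1315, now Ass. CG31988 had the widest shift. Its gene level was 240.34 in SG and 3767.17 in SC, and its extension level 0.0267 in SG and 68.1 in SC, in the authors' deposited table. The share of the CG31988 extension was thus 0.0111% in SG and 1.81% in SC (authors' FDR 1.65e-53). CG13898 and CG14540 had an extension listed at 0 in SG, with extension levels of 0.315 and 0.244 in SC, and get no fold here. Among the other 4, the glucose transporter gene Glut3 had an extension level of 0.00642 in SG and 0.212 in SC, the lipase gene Lip2 0.0219 in SG and 1.46 in SC, NijC, of the ninjurin family of membrane proteins, 0.261 in SG and 2.93 in SC, and Drsl2, of the drosomycin family of antifungal peptides, 0.052 in SG and 1.01 in SC, in the authors' deposited table. In several of the 16 the extension moved about as far as the gene: the log2 fold of the share was -0.08 for CG14106, -0.26 for Lip2 and -0.34 for CG1315. Over all 78 genes the share differed by at least 2 times in 71 (91.0%), against 618 of the 673 other listed genes (91.8%). For the 62 genes with a higher share this was largely fixed by the selection. Each had a gene level at least 4 times lower in SG beside a higher extension level. Nothing is read from the 2 percentages for that reason. The 71 include CG13898 and CG14540, whose SG extension was listed at 0.

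Where the extensions lie was set against the deposited gene loci and the annotation of the same assembly. Of the 78 extensions 18 lay inside the locus, 23 crossed its 3′ end, 6 began directly at that end and 31 began past it (39.7%, against 29.3% of the 673 other genes). The gap of those 31 had a median of 73 bases and reached 2450 bases for robls54B. At least 1 base of the gene's own annotated 3′ UTR was touched by 38 extensions (48.7%, against 54.8% of the other genes), 35 of them among the 62 and 3 among the 16. Inside the locus, 14 of the 18 extensions lay wholly in that UTR, and 2 held no exon base of their own gene. Of the 16 extensions with a lower share in SG, 11 began past the locus end and none lay inside it, and of the 50 other listed genes with that direction 43 began past it. Lengths ran from 200 to 6171 bases with a median of 540, against 590 in the other genes. The longest, in the phosphodiesterase gene Pde9 on the X (12784959 to 12791129, minus strand), was annotated as its own 3′ UTR over 5567 of its bases.

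**Figure D3:**
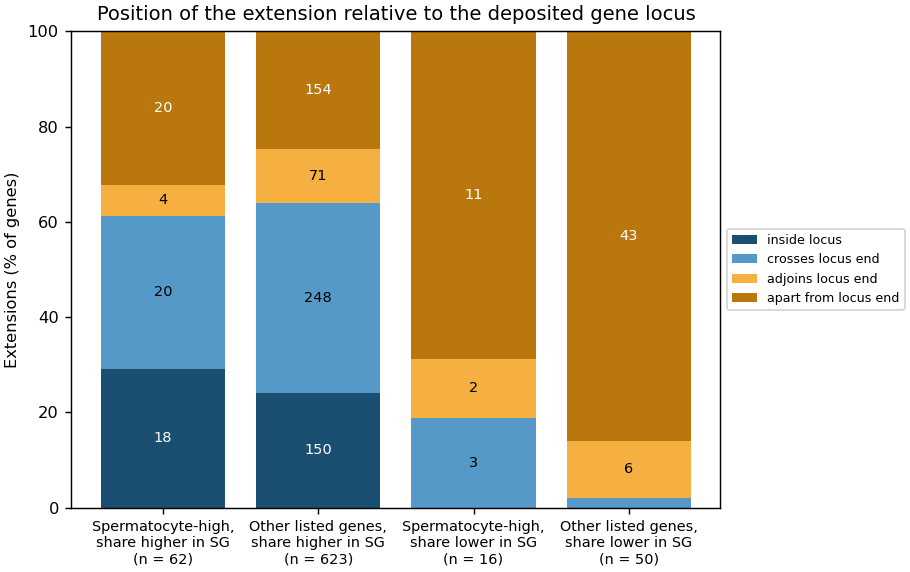
Share of extensions (y axis, % of genes) that lie inside the deposited gene locus, cross its end, adjoin its end or begin apart from it, with numbers of genes in the segments. Of the 62 spermatocyte-high genes with a higher share in SG, 18 lie inside and 20 apart; of the 16 with a lower share, none lie inside and 11 apart; the unlabelled thin segment of the last bar is 1 gene.

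Neighbouring genes touched some of these intervals. An exon of another gene was touched by 13 of the 78 extensions (16.7%, against 11.6% of the other genes), 11 of them on the gene's own strand. In CG11656 that overlap took 286 of 490 bases, with an exon of CtBP, and in mus304 223 of 340 bases, with exons of CG32195 and CG7341. In fzo it took 548 of 1300 bases, with an exon of cnc, in trbd 462 of 950 bases, with Unc-115a, and in NijC 217 of 570 bases, with Past1. The labels do not state whether counting used the strand, so how much of these levels came from the neighbour was not tested.

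Many loci of the spermatocyte-high genes overlapped another gene. Another protein-coding gene on the same strand overlapped 18 of the 78 loci (23.1%), against 55 of 673 (8.17%), a difference that was not tested. In 12 of the 18 the other gene lay wholly inside the member's locus, 15.4% of the 78 against 5.5% of the 673. Long loci hold more genes, and the 12 all had loci of at least 10000 bases; among genes of that length the nested gene was found in 12 of 27 members (44.4%) and in 24 of 207 other genes (11.6%). The nested genes included UQCR-11L, named as a subunit of the respiratory chain, inside Acsl, tomboy40, a testis paralogue of the mitochondrial import pore, inside bin3, and fzo, the mitofusin of spermatids, inside cnc, which encodes the oxidative stress regulator of the Nrf2 family. The remaining hosts were CG31324, IA-2, Pde9, CG45050, dally, Fhos, Mical, CG12163 and stai.

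For fzo and cnc the authors' deposited table gives identical gene levels, 1.71 in SG and 244.79 in SC, so that 1 level stands for both genes. The extensions of the pair lie apart and had their own levels, 2.56 in SG and 0.239 in SC for fzo and 24.3 in SG and 0.759 in SC for cnc. Both extension levels exceeded the shared gene level in SG. The SC gene level was a median of 26.5 times the SG level in the 18 overlapping genes and 7.19 times in the other 60, while the median log2 fold of the extension was 3.77 in the 18 and 4.02 in the 60. Of the 10 genes with the largest share folds 6 were among the 18, and of the 10 with the largest gene ratios 5. The rule used the gene ratio and the share fold contains it, so nothing is read from these values. The 18 also had longer loci, with a median of 23293 bases against 3127 in the 60, and in 4 of the 18 the overlap was only partial. The part of the nested gene in a member's gene level was not tested.

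Extension levels higher than the gene level were listed in SG for 11 of the 78 genes (14.1%, against 15.5% of the other genes) and in SC for none. The largest excess was in cnc, then in CG30463 (current symbol Pgant9, an enzyme that starts O-linked glycosylation), with an extension level of 13.6 in SG and 0.807 in SC and a gene level of 2.69 in SG and 12.58 in SC in the authors' deposited table. For these 11 genes the share stands at its upper limit of 100% in SG and does not measure the excess.

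By chromosome arm, 16 of the 78 genes were on 2L, 15 on 2R, 18 on 3L, 20 on 3R and 9 on the X. The X held 11.5% of the 78 and 23.2% of the 673 other genes, and chromosome 4 held none of the 78 and 19 of the 673. All 9 X-linked genes (Pde9, r-cup, CG42797, UBL3, CG1885, rdgB, LIMK1, Unc-76 and Gclc) were called with a higher share in SG, and 155 of the 156 other X-linked genes had a higher share there.

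The same genes were then followed in the 3 mutants. The mutant tables use the SC averages that the rule used, so their values are set side by side and are not independent of it. Of the 78 genes, 31 were in the SG-tut table, 31 in the SG-bam table and 22 in the SG-bgcn table, 44 in at least 1 of the 3 and 34 in none. An unlisted gene has no value here, and this does not show that its extension was unchanged. The matching counts for the other genes of the SG table are not given here. Nothing is therefore read from how many members were listed in a mutant table, or in all 4 tables. In SG-tut 21 of 31 were called with a higher share (67.7%, against 71.9% of all rows of that authors' deposited table) and 10 with a lower one (32.3%, against 25.2%). In SG-bam 21 of 31 were called higher (67.7%, against 73.5%) and 10 lower (32.3%, against 22.1%). In SG-bgcn 16 of 22 were called higher (72.7%, against 71.0%) and 4 lower (18.2%, against 23.5%), with RhoGEF3 (authors' FDR 0.0644) and CG7218 (0.0572) past the limit. Nothing is read from these counts against the whole tables, since the rule used the same SC averages. The listed extension shared at least 1 base with the SG interval in every case, and the interval was identical for 5 genes in SG-tut, 4 in SG-bam and 3 in SG-bgcn.

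The mutants' gene levels were below those of SC for most of the listed genes. The gene level was at least 4 times lower than in SC for 21 of the 31 SG-tut genes (67.7%), 20 of the 31 SG-bam genes (64.5%) and 15 of the 22 SG-bgcn genes (68.2%). Among all rows with an SC level of at least 10 the share was 32.5% in the SG-tut table, 31.0% in the SG-bam table and 28.5% in the SG-bgcn table. The genes were chosen on these SC averages, so nothing is read from the gap. The gene level stood at or above SC for 3 genes. CG30463 had 27.22 in SG-tut, 27.88 in SG-bam and 33.85 in SG-bgcn, against 2.69 in SG and 12.58 in SC, in the authors' deposited tables. Gclc had 10.98 in SG-tut and 10.15 in SG-bam, against 1.02 in SG and 10.78 in SC, and only the SG-tut value exceeded SC. Galphao, a G protein alpha subunit, had 27.69 in SG-tut, against 5.55 in SG and 26.97 in SC. For these 3 genes the low wild-type SG level that selected them was not found in the mutant testes that list them. A gene level above that of SG was not confined to them. It was listed for 15 of the 31 SG-tut genes, 15 of the 31 SG-bam genes and 11 of the 22 SG-bgcn genes.

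Listed in all 4 tables were 11 genes, CG30463, beat-IIIc, RhoGEF3, CG12511, Rb97D, NijC, CG8786, TSG101, CG8353, CG45050 and CG31988. The SC extension levels given with them are those of the SG table. CG45050 (current symbol drn) had extension levels of 17.1 in SG, 28.8 in SG-tut, 29.2 in SG-bam and 30.2 in SG-bgcn, against 0.64 in SC. Its gene level was 72.13 in SG, 142.02 in SG-tut, 144.93 in SG-bam and 127.65 in SG-bgcn, against 541.97 in SC, in the authors' deposited tables. The extension of beat-IIIc had 9.35 in SG, 12.5 in SG-tut, 18.2 in SG-bam and 25.8 in SG-bgcn, against 0.267 in SC, above its gene level in each mitotic group. RhoGEF3 had extension levels of 3.65 in SG, 1.43 in SG-tut, 1.5 in SG-bam and 1.34 in SG-bgcn, against 0.0489 in SC.

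Rb97D had extension levels of 2.24 in SG, 10.1 in SG-tut, 7.98 in SG-bam and 18 in SG-bgcn, against 0.192 in SC, in the authors' deposited tables. Over the longer interval of SG-tut and SG-bam, of 1488 bases, the SC level was 0.344, and over that of SG-bgcn 0.195. All these Rb97D intervals touched 70 bases of an exon of SPARC, which is on the same strand. The part of SPARC in these levels was not tested. The remaining higher ones, CG12511, CG8786, TSG101 and CG30463, also had a higher share in each of the 4 groups. Of the 3 with a lower share, CG31988 had a gene level of 240.34 in SG, 6.77 in SG-tut, 32.36 in SG-bam and 5.4 in SG-bgcn, against 3767.17 in SC, and NijC had 32.96 in SG, 45.55 in SG-tut, 49.45 in SG-bam and 51.68 in SG-bgcn, against 172.99 in SC. CG8353 had an extension level of 0.267 in SG, 0.0293 in SG-tut, 0.032 in SG-bam and 0.0187 in SG-bgcn, against 2.27 in SC, in the authors' deposited tables.

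**Figure D4:**
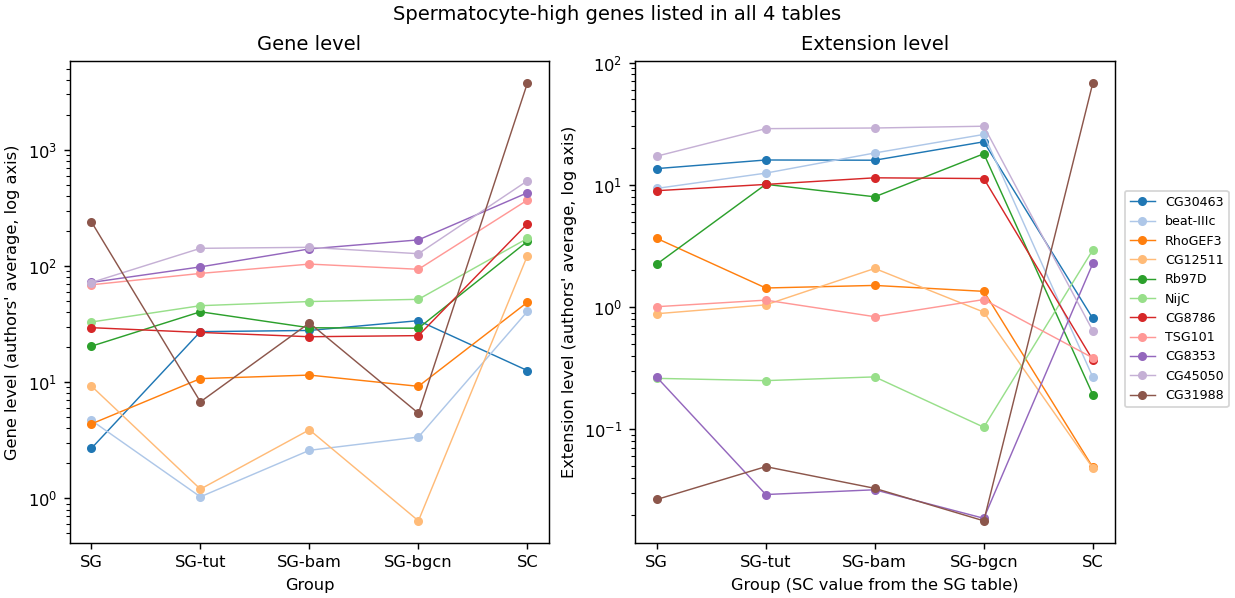
Gene level (left) and extension level (right), both the authors' group averages on log axes, of the 11 spermatocyte-high genes listed in all 4 tables, by group with SC last. Gene levels are highest in SC except for CG30463, and the extension levels of NijC, CG8353 and CG31988 are highest in SC while the other 8 are lowest there; the intervals measured differ between tables and the SC extension value is that of the SG table.

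Spermatocyte programme genes were listed in the mutants in part. The extension of aly had a level of 1.89 in SG-bam and 1.53 in SG-bgcn, against 0.617 and 0.428 in SC over the intervals of those tables, and its gene level was 23.35 in SG-bam and 18.21 in SG-bgcn, against 72.72 in SC. The extension of orb had 4.18 in SG-tut and 4.07 in SG-bgcn, against 0.207 and 0.204 in SC, in the authors' deposited tables. For fzo the extension level was 7.42 in SG-bam and 6.76 in SG-bgcn, against 0.322 and 0.316 in SC, and the gene level 1.49 in SG-bam and 0.93 in SG-bgcn, against 244.79 in SC.

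The gene level of some members came near 0 in a mutant beside a higher extension level, in hosts of a nested gene and in others. CG12163 (current symbol CtsF, a cathepsin) had a gene level of 1.87 in SG-tut and 1.24 in SG-bgcn, against 51.83 in SG and 2149.77 in SC. Its extension level was 49.5 in SG-tut and 27.1 in SG-bgcn, against 0.568 and 0.239 in SC, in the authors' deposited tables. IA-2 had a gene level of 0.33 in SG-tut and 0.03 in SG-bgcn, against 1505.42 in SC, and an extension level of 3.28 in SG-tut and 3.54 in SG-bgcn. The formin gene Fhos had a gene level of 0.97 in SG-bam and 0.01 in SG-bgcn, against 206.58 in SC, beside extension levels of 11.3 in SG-bam and 12.7 in SG-bgcn, in the authors' deposited tables. Among genes that host none, the authors' deposited table for SG-bam gives DIP-theta a gene level of 0.82 and an extension level of 2.11. Other hosts had higher gene levels, such as 17.98 in SG-tut and 21.05 in SG-bam for Mical. The extension interval of CG12163 in SG and that of Fhos hold no annotated exon base of their own gene. An extension level above that of the whole gene was listed for 4 genes in SG-tut, 5 in SG-bam and 7 in SG-bgcn. The same counts over all rows of these mutant tables are not given here, so nothing is read from them about the members.

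Among genes with a lower share in a mutant, called or not, the extension was listed at 0 for 6 of the 10 SG-tut genes, 6 of the 10 SG-bam genes and 1 of the 5 SG-bgcn genes. In SG-tut these were CG14069, CG14106, CG14540, CG5122, Drsl2 and Glut3, and in SG-bam CG13898, CG14106, CG14540, CG30196, Drsl2 and Glut3. Lip2 was the one in SG-bgcn. A value of exactly 0 may stand for an estimate that failed, so these genes get no fold. The whole gene was also near 0 in some of them, with 0.07 in SG-tut against 158.01 in SC for Glut3. CG13898 had a gene level of 8.3 in SG-bam, against 1920.8 in SC. Whether a 0 reflects a low gene level was not tested. How often a 0 was listed over all rows of these tables is not given here.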

How the data were processed

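RNA-seq of 12 testis libraries was analysed from 4 deposited tables, each setting 1 mitotic group against SC. Per the file headers, the authors averaged the libraries of a group into an extension and a gene level (whose unit is not named), a share deposited as a fraction, log2 folds with SC as the denominator, a p-value and an FDR. In each row the fraction was obtained by adding 1e-05 to both levels, dividing extension by gene and stopping at 100%. The submitters' processing notes name genome build dm6 and the tools DESeq2, Cuffdiff 2.2.1 with Cufflinks 2.2.1, the aligner TopHat2 2.1.0, the trimmer Trimmomatic 0.33, FastQC 0.11.3 for read quality, and CASAVA. What each tool made, and how extensions were defined, is not given in the sources used here. Depth per library is unknown and no interval is given. In all 2634 rows of the deposited tables P was below 0.05, with a change of over 2 times in the extension level. The extension level and the share moved in the same direction in each of these rows.

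Members were selected by the rule stated in the report, and counted by the authors' FDR and the direction of the deposited share fold. No test was run. The members, the 16 function lists and the 4 marker lists were chosen with earlier results of these data known. Positions were compared with the Ensembl annotation (release 115, assembly BDGP6.54, which is dm6), counted from 1, at an overlap of at least 1 base on either strand; 77 of 78 member identifiers matched and LIMK1 was matched by symbol. A planned search for polyadenylation signals was not made, since no genome sequence was used here. Named genes followed a rule on levels, folds, lists and tables, which gave 48 genes; other members named for their role, their position or their mutant values were chosen after their values were seen. Python 3.11.15, pandas 2.3.3 and numpy 2.4.6 were used, and figures were drawn with matplotlib 3.10.9. The functions that select members and count shared bases were checked on made-up input.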

Additional observations from a re-analysis of the deposited data

How the results depend on the processing

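Of 63 alternatives over 14 results, 48 left the count within 1.5 times. With a fold of 2 in place of 4 the rule found 155 genes, and with a fold of 8 it found 38, of which 28 were called higher in SG. Over identical intervals alone, 2 genes were called higher and 3 lower in SG-tut, 1 higher and 3 lower in SG-bam, and 1 higher and 2 lower in SG-bgcn. Without genes with a level listed at 0, 4 were called lower in SG-tut and 4 in SG-bam. When at least 50% of the extension had to lie in another gene's exon, 2 genes remained in place of 13. Chosen after seeing the data, leaving out the 18 genes whose locus overlaps another protein-coding gene on the same strand gave 10 called higher and 2 lower in SG-bgcn, where 9 had a gene level at least 4 times lower than SC.

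No paired analysis was possible because the tables hold group averages and no value per library. For the same reason no fit without 1 library was made. Windows for polyadenylation signals were not searched, because no genome sequence was used here. The levels carry no replicate error, and a gene that is not listed has no value.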
